A study of Homo sapiens with 20 samples.

Results

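The NRF2 target genes described here are 9 rows of the gene expression table, taken by symbol: AKR1B10, AKR1C1, AKR1C2, AKR1C3, NQO1, GCLM, TXNRD1, SRXN1 and ALDH3A1. All 9 symbols were found, once each, among 36076 genes. All 9 had a mean of at least 0.1 FPKM (read fragments scaled to gene length and library size) over the 12 mRNA-seq libraries, the minimum for a test across the libraries, and SRXN1 was the member under 1 FPKM. The study treated human lung cancer cell lines with decitabine (DAC), a nucleoside that traps and depletes DNA methyltransferases, and asked how the drug alters tumor cells before they meet γδ T cells. mRNA-seq was done in A549, PC9, H1792, CL1-0, CL1-5 and H1299, each as a Mock culture given PBS and a culture given 100 nM DAC for 72 hours and then grown for 3 days without the drug. Omni-ATAC-seq, which reads open chromatin, was done in A549, PC9, CL1-5 and H1299 under the same treatments. There was 1 library for each line, treatment and assay, so lines serve as replicates and the spread between cultures of a line is unknown. A549 is known to carry a KEAP1 mutation, and it was therefore set against the other 5 lines. The KEAP1 status of the other lines is not given in the sources used here, and whatever distinguishes A549 from them cannot be told apart from that mutation.

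NRF2, encoded by NFE2L2, is a transcription factor for the response to oxidants and electrophiles. In resting cells KEAP1 binds NRF2 and hands it to the CUL3-RBX1 ubiquitin ligase for degradation. Oxidants, or mutations of KEAP1 such as those common in lung adenocarcinoma, leave NRF2 free to pair with small MAF proteins on antioxidant response elements, at which BACH1 acts as a repressor. Its target genes encode enzymes that reduce reactive carbonyls and quinones, make glutathione and keep thioredoxin reduced. The aldo-keto reductases AKR1B10 and AKR1C1 to AKR1C3 and the aldehyde dehydrogenase ALDH3A1 handle carbonyls and steroids. NQO1 reduces quinones, GCLM is the modifier subunit of the enzyme that starts glutathione synthesis, TXNRD1 reduces thioredoxin, and SRXN1 restores overoxidized peroxiredoxins.

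Sequences around the start sites are shown first, because they bear on how well the members can be told apart and on what the chromatin data cover. AKR1C1, AKR1C2 and AKR1C3 lie side by side on chromosome 10 (GRCh37, 5005445 to 5149878), with AKR1C2 on the minus strand and the other two on the plus strand. Over the window of 300 bases from 250 before to 50 after the annotated start site, AKR1C1 and AKR1C2 were identical at 288 of 292 aligned bases (98.6%), against 79.5% for AKR1C1 and AKR1C3 and 61.5% for AKR1C1 and AKR1B10. The AKR1C1 and AKR1C2 windows are printed so that the overlap can be seen. Capitals mark bases that differ or have no partner in the other window, and both read 5′ to 3′ on the strand of the gene.
AKR1C1 (chr10:5005357-5005656, plus strand): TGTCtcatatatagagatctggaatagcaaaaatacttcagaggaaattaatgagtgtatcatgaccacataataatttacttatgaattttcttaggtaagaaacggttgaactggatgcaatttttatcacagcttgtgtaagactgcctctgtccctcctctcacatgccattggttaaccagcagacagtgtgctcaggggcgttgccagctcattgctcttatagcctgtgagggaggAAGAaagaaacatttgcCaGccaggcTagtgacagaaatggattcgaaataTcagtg
AKR1C2 (chr10:5046000-5046299, minus strand): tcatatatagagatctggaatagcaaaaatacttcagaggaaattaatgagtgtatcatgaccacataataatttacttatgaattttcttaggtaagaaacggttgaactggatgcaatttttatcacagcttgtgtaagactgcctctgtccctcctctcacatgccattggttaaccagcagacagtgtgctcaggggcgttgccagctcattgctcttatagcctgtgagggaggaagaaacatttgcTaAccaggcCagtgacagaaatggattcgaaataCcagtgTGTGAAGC
With 4 mismatches in the aligned stretch, short reads from much of it fit both promoters. How reads that fit several places were treated is not given in the sources used here.

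The core of an antioxidant response element, written as TGACNNNGC, was then searched on both strands from 1000 bases before to 200 after each annotated start site. A match was found for 5 of the 9 members, against 38.3% of 18264 promoters of the same length, so that a match to this short core is common. The fuller form TGACTCAGC, which is a special case of the first motif, was found in 1 member, NQO1, and in 1.44% of all promoters. The matches that lay inside a peak of open chromatin in all 8 ATAC-seq lists are printed with the core in capitals, each on the strand on which the core reads 5′ to 3′.
NQO1 (chr16:69760884-69760944, minus strand): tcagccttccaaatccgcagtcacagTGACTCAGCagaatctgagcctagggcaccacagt
GCLM (chr1:94374986-94375046, plus strand): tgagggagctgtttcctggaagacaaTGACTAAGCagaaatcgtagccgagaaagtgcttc
TXNRD1 (chr12:104609432-104609492, plus strand): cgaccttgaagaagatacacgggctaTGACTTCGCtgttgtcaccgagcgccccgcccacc
TXNRD1 (chr12:104609523-104609583, minus strand): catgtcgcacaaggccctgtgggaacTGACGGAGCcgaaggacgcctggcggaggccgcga
The NQO1 core starts at -455 from the start site on the strand of the gene. The GCLM core starts at -34, on the opposite strand, and the TXNRD1 cores at -99 and -8. The AKR1B10 match at -858 lay in no peak. The ALDH3A1 match, starting at 28 on the opposite strand, lay in a peak in 2 lists, the Mock lists labelled A549 and CL1-5. The genes lie at chr16:69740899-69760571 (NQO1, minus strand), chr1:94350755-94375012 (GCLM, minus), chr12:104609557-104744085 (TXNRD1, plus), chr17:19641297-19652256 (ALDH3A1, minus), chr20:627259-633844 (SRXN1, minus) and chr7:134212319-134226164 (AKR1B10, plus) in GRCh37. These letters were not found in the windows of AKR1C1, AKR1C2, AKR1C3 and SRXN1.

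The mRNA-seq libraries held 22234485 to 25303899 reads on genes in 10 libraries, and 59735913 (Mock) and 52634234 (DAC) in H1299. Numbers of 1 to 20 reads were even for 85.5% and 81.9% of genes in the H1299 libraries, against 39.2% to 41.5% elsewhere, so most low counts in H1299 were multiples of 2. The cell lines differed in lineage markers. KRT8, KRT18, EPCAM and CDH1, the epithelial list, summed to 3010 FPKM in Mock-treated A549, 1640 in PC9, 142 in CL1-5, 111 in H1299, 80.4 in H1792 and 0.986 in CL1-0, where none of the 4 reached 1 FPKM. Fibroblast genes (COL1A1, COL3A1, DCN and LUM) reached 1 FPKM for all 4 in H1792, with a sum of 99.9, and summed to 0.158 to 3.6 in the other lines. Leukocyte genes summed to 4.23 in A549 and to at most 0.312 elsewhere in Mock. The A549 sum was mostly KRT8 (1578) and KRT18 (1405). CDH1 was at 24.8 in A549 and 25.5 in PC9, whereas EPCAM was at 3.19 in A549, 235 in PC9 and 4.32 in H1792. The epithelial sum was highest in A549 and PC9, as were AKR1B10, AKR1C2 and AKR1C3 below, while AKR1C1 was higher in H1792 than in PC9. The part of lineage in those levels was not tested. In bulk libraries, fewer cells with a transcript and less of it per cell cannot be told apart.

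The first comparison asked how far the members stood higher in A549 without the drug. In Mock libraries, A549 had the highest FPKM of the 6 lines for 7 of the 9 members, and a gene was highest in A549 in 16.4% of 21744 genes tested. At least 2-fold above every other line, on log2(FPKM + 0.1), were 5 of 9 members (AKR1B10, AKR1C1, AKR1C2, AKR1C3 and NQO1), against 3.94% of genes. GCLM and TXNRD1 were higher in PC9. Together the 9 genes took 2.25% of all reads on genes in Mock-treated A549, 0.644% in PC9, 0.464% in H1792, 0.225% in CL1-0, 0.141% in CL1-5 and 0.0828% in H1299.

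AKR1B10, a reductase of aldehydes and retinal, showed the widest range. It was at 2903 FPKM in A549, 107 in PC9, 48.2 in H1792, 1.16 in CL1-5, 0.11 in H1299 and 0 in CL1-0. A549 therefore stood 27.1-fold above the next line, PC9, and at least 39845-fold above a floor of 3 reads in CL1-0, where no read was seen. The lines formed a high set of A549, PC9 and H1792 and a low set near or under 1 FPKM, with no line between. The 4 aldo-keto reductases together took 1.76% of reads in Mock-treated A549, 0.303% in PC9 and 0.225% in H1792.

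AKR1C1, which inactivates progesterone, was at 437 FPKM in A549, 130 in H1792, 114 in PC9, 1.03 in CL1-5, 0.353 in CL1-0 and 0.124 in H1299. AKR1C2, which reduces dihydrotestosterone, was at 1199 in A549, 199 in PC9, 83.9 in H1792, 1.14 in CL1-5, 0.315 in CL1-0 and 0.254 in H1299. AKR1C3, a hydroxysteroid and prostaglandin reductase, was at 795 in A549, 186 in PC9, 93.8 in H1792, 0.643 in CL1-5, 0.252 in CL1-0 and 0.166 in H1299. All 3 genes of the cluster split the lines in the same manner as AKR1B10, and A549 exceeded the next line by 3.36-fold, 6.03-fold and 4.26-fold. PC9 and H1792 exchanged second place between AKR1C1 and the other two, and with no repeat library their order is not secured.

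ALDH3A1, which oxidizes aromatic and medium-chain aldehydes, was at 237 FPKM in A549, 138 in PC9, 4.09 in H1792 and 0.122 in CL1-5, and was listed at 0 in CL1-0 and H1299. A549 and PC9 stood apart from the rest, with A549 higher by 1.71-fold. NQO1 was abundant in every line, at 765 in A549, 346 in CL1-0, 214 in H1792, 211 in PC9, 121 in CL1-5 and 118 in H1299. Its lead in A549 was 2.21-fold over CL1-0, a line that was low for the aldo-keto reductases.

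The glutathione and thioredoxin genes varied less than the aldo-keto reductases. GCLM was at 69.8 FPKM in PC9, 30.1 in A549, 20 in CL1-5, 19.8 in CL1-0, 14.7 in H1792 and 5.34 in H1299. TXNRD1 was at 316 in PC9, 307 in A549, 228 in H1792, 131 in CL1-0, 117 in CL1-5 and 67.0 in H1299. A549 and PC9 were close for TXNRD1, with a ratio of 0.972. SRXN1 was low throughout, from 0.363 in A549 to 0.0684 in CL1-5, on 5 to 28 reads. SRXN1 shares 2292 of its 2528 annotated exonic bases (90.7%) with a longer gene on the same strand, ENSG00000270299, which leaves 236 bases of its own, so the level in the table is uncertain.

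**Figure D1:**
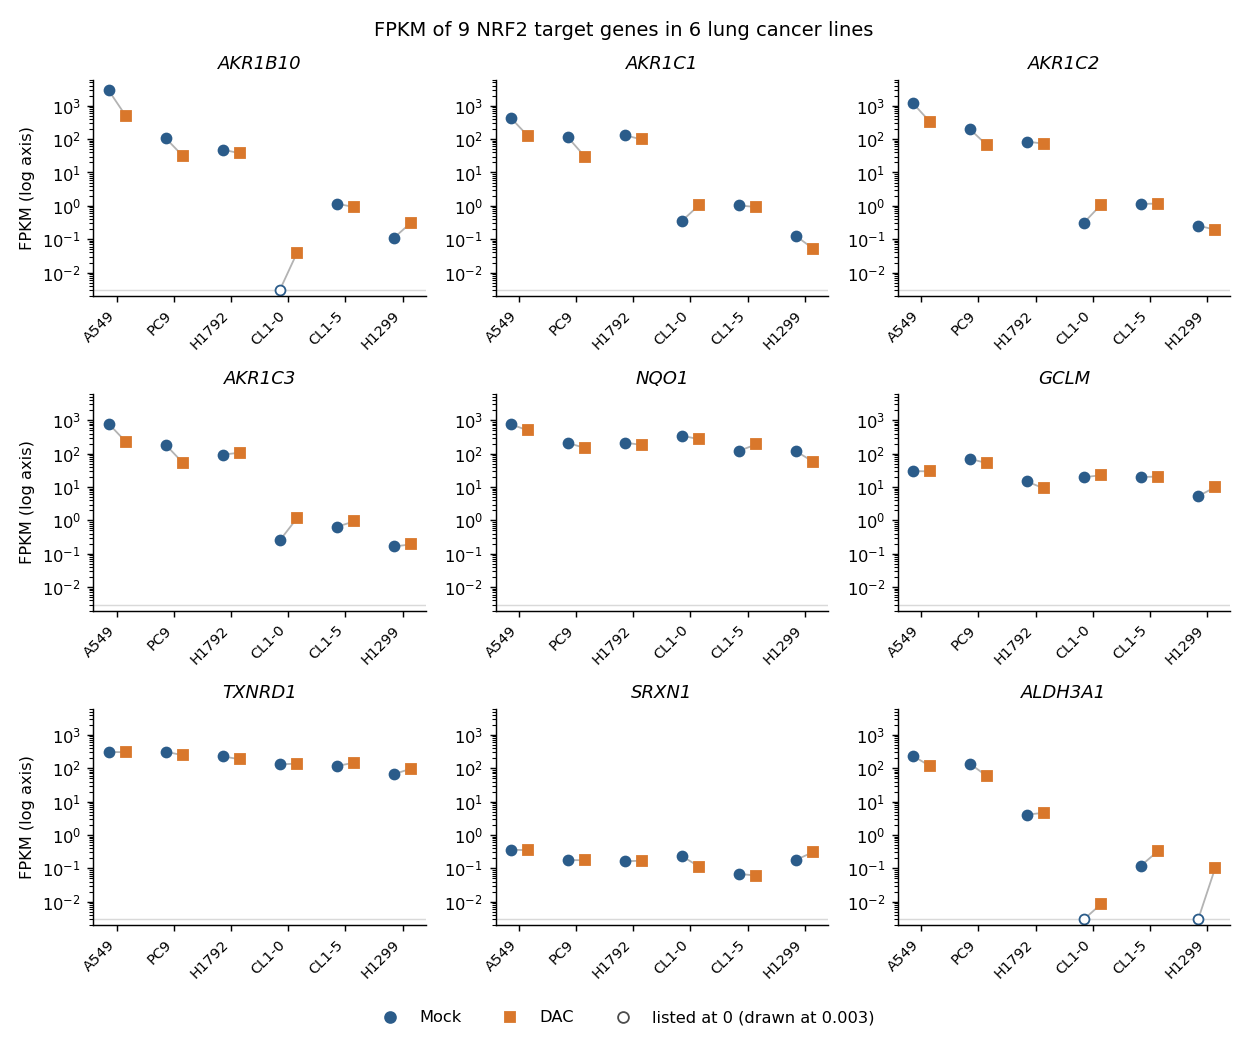
FPKM of each member by cell line, on a log axis, for the Mock library (blue circles) and the DAC library (orange squares) of each line, with values listed at 0 drawn as open symbols at 0.003. AKR1B10, AKR1C1, AKR1C2, AKR1C3 and ALDH3A1 spread over several powers of 10 between A549 and H1299, whereas NQO1 stayed between 57.2 and 765 and TXNRD1 between 67.0 and 316.

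Against the spread of the other 5 lines, none of these differences passed the test. The fit with limma compared A549 with the mean of the other lines on log2(FPKM + 0.1) and called 0 of 9 members and 0% of 21744 genes in either direction at an adjusted p of 0.05 (Benjamini-Hochberg). At an unadjusted p under 0.05, 2 of 9 members were higher in A549, against 3.08% of all genes, and none was lower, against 0.805%. AKR1B10 was 10.08 higher on the log2 scale (SE 3.86) and NQO1 was 2.04 higher (SE 0.71), both with an adjusted p = 0.9975 in limma. The other members were higher by 0.70 (GCLM, SE 1.16) to 7.91 (AKR1C2, SE 3.70), all with an adjusted p of 0.9975 in limma. The median over the 9 members was 6.63, against 0 for all genes tested. All 9 also stayed above 0 on values rescaled to a common sum (TPM) and after quantile normalization, where the medians of all genes were -0.3 and -0.09. An exact permutation of 1 line against 5 cannot give a two-sided p under 0.167, so A549 alone cannot be told from the rest by that test. With 1 line against 5, a missing call in limma does not show that a member did not differ. The large standard errors of the aldo-keto reductases come with the gap between high and low lines among the 5, where the SD on the log2 scale was 4.37 to 4.61 for these 4 genes and 0.65 for NQO1.

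After DAC the order of the lines was largely kept. A549 was highest for 8 of 9 members, against 16.5% of 23506 genes, and at least 2-fold above every other line for 4 of 9, against 4.47%. GCLM remained higher in PC9. AKR1B10 was at 501 FPKM in A549, 37.7 in H1792, 31.3 in PC9, 0.921 in CL1-5, 0.315 in H1299 and 0.0387 in CL1-0. A549 stood 13.3-fold above the next line, H1792, where it had stood 27.1-fold above PC9 in Mock. For AKR1C1, the values were 125 in A549, 97.2 in H1792, 29.8 in PC9, 1.05 in CL1-0, 0.921 in CL1-5 and 0.0518 in H1299. H1792 was in second place for all 4 aldo-keto reductases, and the lead of A549 for AKR1C1 was 1.28-fold.
The same fit on the DAC libraries, which come from the same lines and are not independent of Mock, called 0 of 9 members and 0% of genes, with an adjusted p of 0.9999 in limma for each member. At an unadjusted p under 0.05, 1 of 9 members was higher (AKR1B10, 7.74, SE 3.17), against 3.54% of genes, and none was lower, against 1.02%. The median over the members was 5.16, against 0.08 for all genes.

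The next comparison asked how the members differed between DAC and Mock. In A549, all 9 were lower after DAC, against 42% of 22814 genes. On log2(FPKM + 0.1), 5 of 9 were at least 2-fold lower, against 6.65% of genes, while none was 2-fold higher, against 15.5%. AKR1B10 went from 2903 to 501 FPKM, a 5.8-fold difference, and 0.43% of genes had a lower value of DAC minus Mock in that line. AKR1C1 went from 437 to 125, AKR1C2 from 1199 to 330 and AKR1C3 from 795 to 230, which are 3.51-fold, 3.64-fold and 3.46-fold lower. ALDH3A1 went from 237 to 117 and NQO1 from 765 to 498. GCLM (30.1 and 29.5), TXNRD1 (307 and 304) and SRXN1 (0.363 and 0.352) were nearly equal in both libraries. The sum of FPKM over all genes was 416327 in the Mock library of A549 and 326951 in its DAC library. On the TPM scale GCLM, TXNRD1 and SRXN1 were higher after DAC, by 0.32, 0.34 and 0.27 on the log2 scale. There 6 of 9 members were lower, against 26.7% of genes, and 4 were at least 2-fold lower, against 3.97%. The 9 members took 0.964% of the reads after DAC, against 2.25% before.

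PC9 gave a like picture for the aldo-keto reductases and ALDH3A1. All 9 members were lower after DAC, against 42.8% of genes. At least 2-fold lower were 5 of 9, against 3.1% of genes, with none 2-fold higher, against 10.3%. AKR1B10 went from 107 to 31.3 FPKM, AKR1C1 from 114 to 29.8, AKR1C2 from 199 to 65.4, AKR1C3 from 186 to 53.5 and ALDH3A1 from 138 to 57.9. These are 2.38-fold to 3.81-fold differences, and 1.1% (AKR1C1) to 2.2% (ALDH3A1) of genes in PC9 had lower values of DAC minus Mock. NQO1 went from 211 to 148, GCLM from 69.8 to 52.3 and TXNRD1 from 316 to 245. On the TPM scale SRXN1 was higher instead (0.12 on the log2 scale). There 8 of 9 members were lower, against 29% of genes, and the count of 2-fold lower members stayed at 5, against 3.35%.

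H1792, which also expressed the aldo-keto reductases, had none of the 9 members 2-fold lower or higher, against 6.1% and 11% of genes. There AKR1B10 went from 48.2 to 37.7, AKR1C1 from 130 to 97.2, AKR1C2 from 83.9 to 73.0 and AKR1C3 from 93.8 to 107. ALDH3A1 was at 4.09 and 4.64. The median of DAC minus Mock over the members was -0.22 in H1792, -1.02 in A549 and -1.25 in PC9, beside 0.03, 0.08 and 0.02 for all genes.

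In the 3 lines with low levels the direction was mixed. In CL1-0, AKR1C1 (73 and 272 reads), AKR1C2 (48 and 209 reads) and AKR1C3 (27 and 155 reads) were 2.97-fold, 3.47-fold and 4.58-fold higher after DAC, so that 3 of 9 members were at least 2-fold higher, against 7.6% of genes, and none was 2-fold lower, against 2.11%. Their FPKM after DAC was 1.05 to 1.16. In CL1-5 no member was 2-fold lower or higher, against 5.08% and 7.23% of genes, and NQO1 was at 121 in Mock and 190 after DAC. In H1299 NQO1 was 2-fold lower, at 118 and 57.2 FPKM, against 3.12% of genes, and ALDH3A1 had 0 reads in Mock and 22 after DAC, which makes it the member at least 2-fold higher on the log2(FPKM + 0.1) scale, against 8.04%. Medians over the members were 0.19 in CL1-0, 0.04 in CL1-5 and 0.54 in H1299. On the TPM scale the CL1-5 median was -0.07 instead, and 4 members in CL1-0, 1 in CL1-5 and 2 in H1299 were 2-fold higher. The median of all genes on that scale was 0.18 in CL1-0, -0.07 in CL1-5 and 0.0 in H1299. The share of all genes 2-fold higher was not counted on the TPM scale, so these counts have no background.

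**Figure D2:**
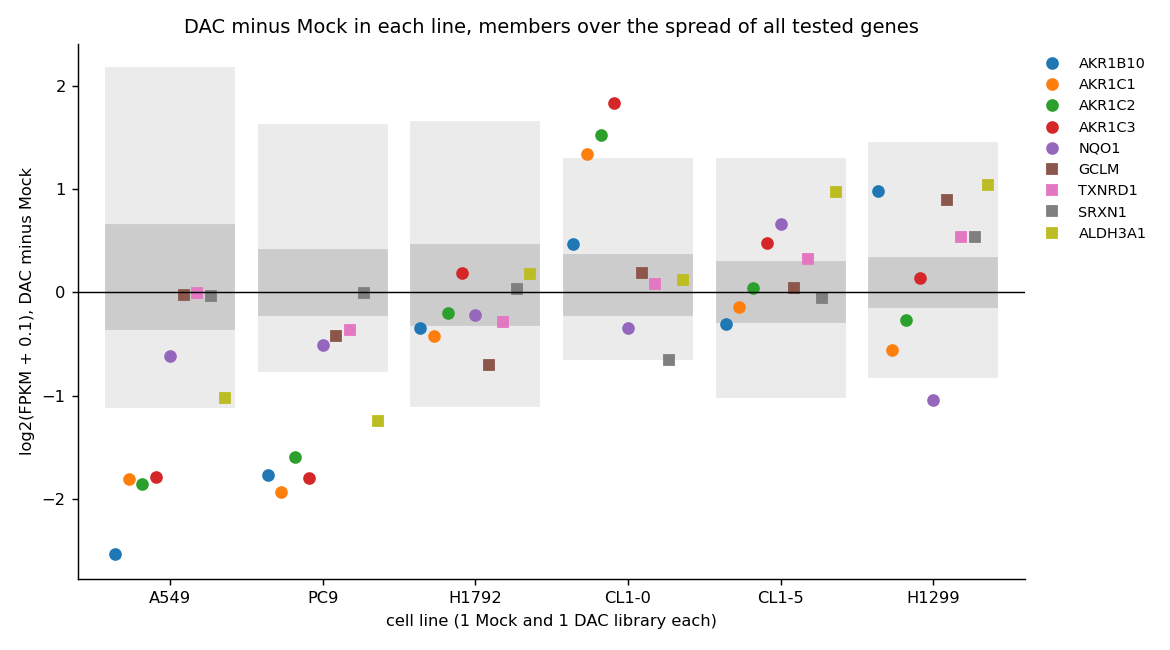
DAC minus Mock on log2(FPKM + 0.1) for the 9 members in each cell line, 1 library per treatment. The light grey box spans the 5% to 95% range of all 22814 genes and the darker box runs from the lower to the upper quartile. The 4 aldo-keto reductases lie below the light box in A549 and PC9, and AKR1C1, AKR1C2 and AKR1C3 lie above it in CL1-0.

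Over the 5 lines that the study compared, which leave out H1792, with the line as a block, 0 of 9 members passed the test, beside 0.119% of 22603 genes called higher and 0% called lower after DAC. No member reached an unadjusted p of 0.05 either, against 8.07% of genes higher and 4.4% lower. The mean of DAC minus Mock was lowest for AKR1B10 (-0.63, SE 0.50, adjusted p = 0.5996 in limma) and AKR1C1 (-0.62, SE 0.45, adjusted p = 0.5785), and highest for GCLM (0.14, SE 0.18, adjusted p = 0.7602). NQO1 was at -0.37 (SE 0.24, adjusted p = 0.5336). The median over members was -0.23, against 0.07 for all genes. In the deposited units 7 of 9 members were below 0, against 41.2% of genes. On the TPM scale 5 of 9 were below 0, where the median of all genes was 0.19. After quantile normalization 6 of 9 were below 0, where the median of all genes was -0.04. Leaving out a line gave medians over the members of -0.05 (A549), -0.06 (PC9), -0.29 (H1299), -0.38 (CL1-0) and -0.41 (CL1-5). With voom on recovered reads the median was -0.67 and AKR1B10 was at -1.72. There 4 of 9 members had an unadjusted p under 0.05. Of all 22603 genes, 2047 were higher and 1051 lower at that p. None of the members passed the adjusted threshold.

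Whether A549 differed from the other lines in its response was tested directly, as DAC minus Mock in A549 less the mean of the other 5 lines. The test called 0 of 9 members, beside 0.118% of 22814 genes higher and 0.00877% lower. At an unadjusted p under 0.05, 1 member, AKR1B10, was lower, against 4.56% of genes, and none was higher, against 6.52%. AKR1B10 was 2.34 lower in A549 than in the mean of the others, written as -2.34 (SE 0.90, adjusted p = 0.4336 in limma). AKR1C3 was at -1.96 (SE 1.11), AKR1C2 at -1.76 (SE 0.96), AKR1C1 at -1.47 (SE 1.00) and ALDH3A1 at -1.23 (SE 0.82). NQO1, TXNRD1, GCLM and SRXN1 lay between -0.32 and 0, with adjusted p-values of 0.8663 to 0.9994 in limma. The median over the members was -1.23 against 0.03 for all genes, and 9 of 9 were below 0, SRXN1 by an amount that rounds to 0, against 48.6% of genes. On the TPM scale 4 of 9 were above 0, where the median of all genes was 0.32. After quantile normalization 3 of 9 were above 0, where the median of all genes was -0.05. The share of all genes above 0 was not counted on these scales. The median over the members was -0.69 after quantile normalization, with AKR1B10 at -1.43 and AKR1C2 at -0.90, and -0.78 with voom on recovered reads. PC9 is among the lines averaged, and leaving out each line in turn gave medians of -1.59 (PC9) to -1.02 (H1299).

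**Figure D3:**
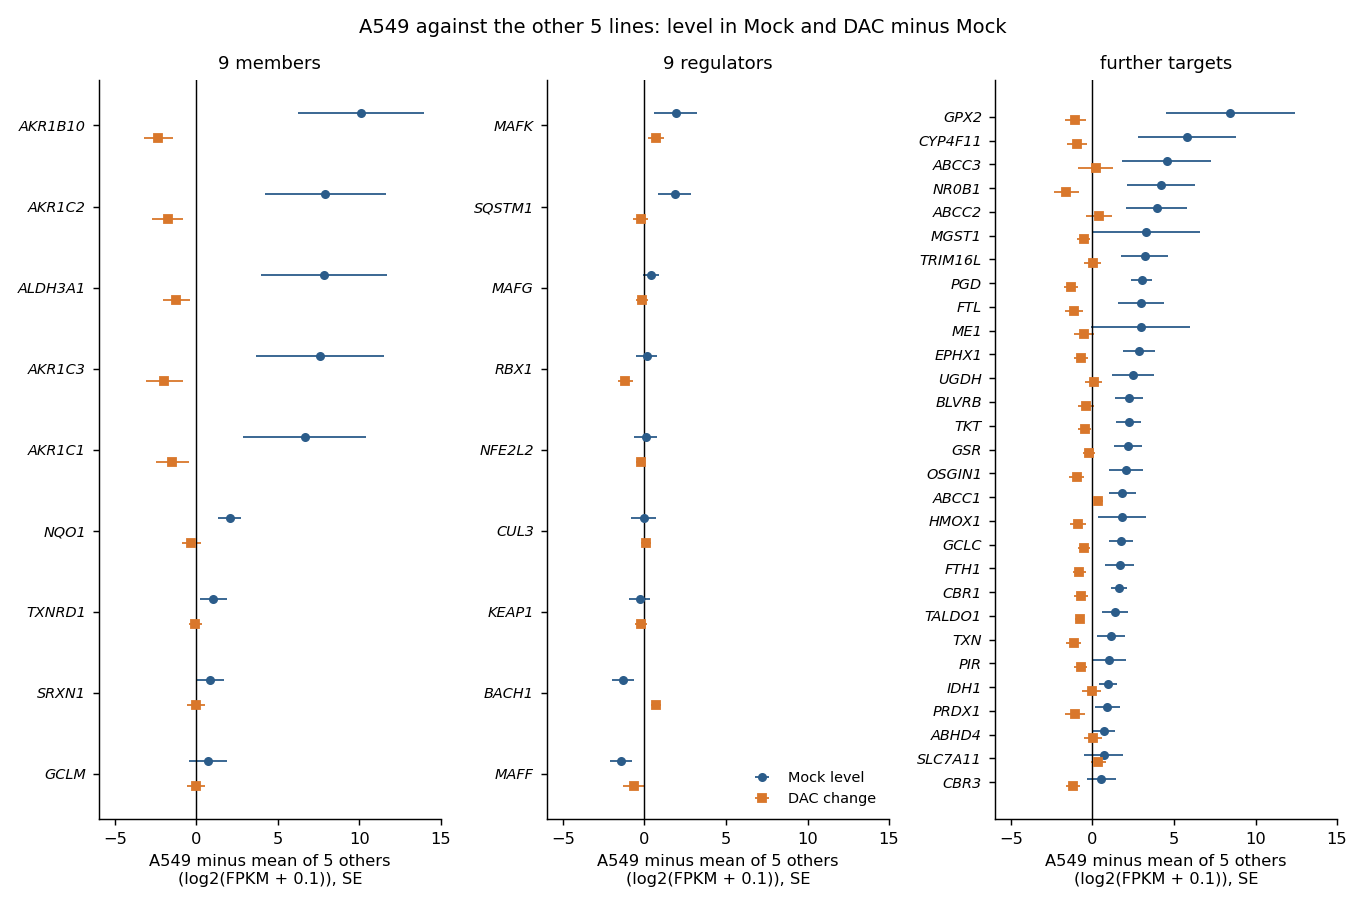
A549 minus the mean of the other 5 lines on log2(FPKM + 0.1), with standard errors from limma, for the level in Mock (blue circles) and for DAC minus Mock (orange squares). All 9 members and every further target shown lie right of 0 in Mock, the regulators lie on both sides, and no gene shown passed the adjusted threshold of 0.05.

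The 9 regulators of the pathway did not share the pattern. NFE2L2, the gene of NRF2 itself, was at 18.0 FPKM in Mock-treated A549 and between 10.0 and 35.3 in the other lines, and KEAP1 was at 23.9 against 18.0 to 50.7. The ligase subunits CUL3 (6.92, others 4.59 to 19.0) and RBX1 (16.6, others 9.2 to 24.2) also lay within the range of the others. SQSTM1, whose protein p62 competes with NRF2 for KEAP1, was at 115 in A549 and 12.3 to 89.8 elsewhere. The repressor BACH1 was lowest in A549, at 1.81 against 2.84 to 8.3. Among the small MAF partners, MAFF was lowest in A549 (2.23, others 3.36 to 8.92), MAFG was at 18.8 (others 8.77 to 18.5) and MAFK at 9.1 (others 0.77 to 11.2). In the test of A549 against the others in Mock, 5 of the 9 regulators were above 0 and 4 below, with a median of 0.07, and none passed at an adjusted or unadjusted p of 0.05.
After DAC, A549 had 3.37 FPKM of BACH1, against 1.81 in Mock, and 19.5 of MAFK, against 9.1. RBX1 was at 7.89, against 16.6, and NFE2L2 at 16.0, against 18.0. On the log2 scale in the deposited units, BACH1 was higher after DAC by 0.86 in A549 and 0.51 in PC9, and by 0.01 to 0.18 in the other lines. The sum of FPKM was also higher after DAC in H1792 (284496 and 319254) and CL1-5 (303684 and 328949), so differences this small depend on the scale. None of the 9 regulators passed in the fit over 5 lines or in the test of A549 against the others, where 1 (RBX1) was lower at an unadjusted p under 0.05, against 4.56% of genes.

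Beyond the 9 members, 30 other genes known to be induced by NRF2 were counted. In Mock, all 30 had a higher value in A549 than in the mean of the other lines, with a median of 2.21 on the log2 scale against 0 for all genes, and the 6 named next were also above 0 on the TPM scale and after quantile normalization. A549 was the highest line for 23 of 30, against 16.4% of genes, and at least 2-fold above every other line for 10, against 3.94%. At an unadjusted p under 0.05, 7 of 30 were higher, against 3.08% of genes, and 0 passed the adjusted threshold in limma. The largest differences were those of GPX2, a glutathione peroxidase (8.46, SE 3.97), CYP4F11, a fatty acid hydroxylase (5.80, SE 2.99), and ABCC3, an export pump for conjugates (4.57, SE 2.73). GPX2 was at 203 FPKM in A549 and 169 in PC9, and at 0 to 0.197 in the other lines. The smallest were those of CBR3, a carbonyl reductase (0.53, SE 0.89), SLC7A11, the cystine importer (0.68, SE 1.19), and ABHD4, a lipase (0.68, SE 0.70).
Over the 5 study lines, DAC minus Mock was below 0 for 25 of the 30 and above 0 for 5, with a median of -0.15, and 0 passed the adjusted threshold in limma, while 4 were lower at an unadjusted p under 0.05, against 4.4% of genes. Of all genes, 41.2% were below 0. The extremes were NR0B1, a nuclear receptor (-0.59, SE 0.38), and ABCC2, another conjugate pump (0.32, SE 0.23). In A549, 26 of 30 were lower after DAC (23 on the TPM scale) with a median of -0.69, beside 42% of all genes (26.7% on the TPM scale). In PC9, 28 of 30 were lower (26 on the TPM scale) with a median of -0.44, beside 42.8% of all genes (29% on the TPM scale). In CL1-5, 5 of 30 were lower (7 on the TPM scale), beside 46.6% of all genes (55.1% on the TPM scale). The other lines were mixed, with 15 of 30 lower in H1792, 19 in CL1-0 and 17 in H1299, beside 41.9%, 43.5% and 32% of genes. On the TPM scale these were 17, 13 and 16, beside 52.2%, 30% and 30.4%. In A549, NR0B1 went from 43.4 to 11.8 FPKM.

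The genes most like the members were sought over all 12 libraries, by the Pearson correlation of log2(FPKM + 0.1) with the mean standardized profile of the 9 members, among genes with a mean of at least 1 FPKM. Among the 10 highest were ABCG2, OPN3, PTPRM, PTGR1, CXXC5, ENSG00000272068, TMOD3 and PHLDA3, with r from 0.97 to 0.954. Libraries of a line are not independent, so these values describe the 6 lines and carry no p. ABCG2, a drug efflux pump, was at 25.1 and 21.4 FPKM in A549 (Mock and DAC), 6.06 and 5.04 in PC9, 5.36 and 7.0 in H1792, and 0.216 to 1.39 in the libraries of the other lines. PTGR1, a reductase of prostaglandins and unsaturated aldehydes, was at 141 and 100.0 in A549, 88.5 and 81.0 in PC9, 48.4 and 60.8 in H1792, and 14.3 to 31.8 in the others. Among the members, the 4 aldo-keto reductases correlated with each other at 0.95 or above, with ALDH3A1 at 0.91 to 0.96 and with TXNRD1 at 0.88 to 0.93. NQO1 correlated with them at 0.55 to 0.61, GCLM at 0.48 to 0.54 and SRXN1 at 0.33 to 0.46.

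Several of these genes share sequence. Of the stretches of 50 bases in the AKR1C2 transcript, 45.7% also occur in that of AKR1C1, and 22.3% of those of AKR1C1 occur in AKR1C2. The share was 14.9% for AKR1C3 in AKR1C2 and 11.3% for AKR1B10 in AKR1B15, and 0 stretches were common to AKR1B10 and AKR1B1. AKR1B15 was at 142 FPKM in Mock-treated A549 and 27.7 after DAC, and AKR1C4 at 61.7 and 19.5. Their part in the values of the members was not tested. AKR1B1, which shares no such stretch with AKR1B10, was at 312 in A549, 306 in PC9, 186 in H1792, 72.9 in CL1-0, 60.5 in CL1-5 and 27.2 in H1299 in Mock. As for AKR1B10, A549, PC9 and H1792 were the 3 highest lines. AKR1B1 was at 210 after DAC in A549 and at 411 in H1792.

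Open chromatin at the start sites was compared last. The libraries labelled CL1-5 and PC9 went against their labels. There were 143 genes with at least 5 FPKM in PC9 and under 0.1 in CL1-5. A peak near the start site was listed for 46.9% of them in the PC9-labelled Mock library and for 88.1% in the CL1-5-labelled one. Of 85 genes with the reverse expression, 82.4% had a peak in the library labelled PC9 and 48.2% in that labelled CL1-5. The peak names inside these lists also carry the name of the other line. They are called by their labels below.

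A peak within 3000 bases of the start site was listed for all 9 members in the Mock library of A549, against 85.8% of the 16623 genes ranked. In Mock, that labelled CL1-5 had a peak for 8 of 9 (88.3% of genes), that labelled PC9 for 5 of 9 (86.9%) and that of H1299 for 4 of 9 (81.5%). The DAC libraries gave the same 4 counts of members, against 89.1%, 89.4%, 90.3% and 84.6% of genes. NQO1, GCLM, TXNRD1 and SRXN1 had a peak over the start site in all 8 lists. AKR1B10, AKR1C1 and ALDH3A1 had a promoter peak in the 4 lists labelled A549 and CL1-5, AKR1C2 in the 2 lists of A549, and AKR1C3 in 6 lists. For AKR1C2 this concerns the start site used here. Over the gene and 10000 bases on each side, the Mock lists held 4 peaks in A549 and 7 in that labelled CL1-5. Those labelled PC9 and H1299 held 1 each. In H1299, the line with the lowest mRNA of AKR1C1, AKR1C2 and AKR1C3 in Mock, none of the 4 aldo-keto reductases and not ALDH3A1 had a promoter peak. Of these 5 genes, AKR1C3 alone had a peak in the libraries labelled PC9, and 4 of them had a peak in those labelled CL1-5. Their mRNA in Mock was at 107 to 199 FPKM in PC9 and at 0.122 to 1.16 in CL1-5. Were these labels exchanged, the library with 4 of the 5 peaks would be that of PC9, the line with the higher mRNA.

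Strength was read as fold enrichment over the local background and ranked within each list, because the scale differs between lists. In A549, the AKR1B10 peak (chr7:134212022-134212664, covering the start site and first exon) had a fold enrichment of 6.55 in Mock and 3.96 after DAC, which are the 56.3 and 27.7 percentiles. The AKR1C1 peak was at 7.71 and 5.22 (percentiles 70.3 and 43.6), and that of AKR1C2 at 10.1 and 7.76 (91.8 and 75.2). AKR1C3 went the other way, at 6.0 and 6.54 (49.6 and 60.6). The A549 lists differed in length, with 58734 peaks in Mock and 78199 after DAC. With the 45354 strongest peaks kept in each list, the percentiles in Mock and after DAC were 53.4 and 23.0 for AKR1B10, 68.3 and 39.9 for AKR1C1, 91.3 and 73.6 for AKR1C2, and 46.4 and 58.1 for AKR1C3, so each difference kept its direction. None of them has a replicate. For ALDH3A1 in A549, the strongest peak (4.01 and 4.37) lay inside the gene and did not cover the start site. In the Mock library labelled CL1-5 the strongest ALDH3A1 peak was at 2.53 and covered the start site. The value after DAC, 3.26, came from another peak, inside the gene, that did not cover it. The libraries labelled PC9 had none.
In the libraries labelled CL1-5, AKR1B10 was at 4.0 and 3.03 (34.0 and 21.6), AKR1C1 at 5.76 and 5.34 (62.7 and 73.5), the second from a peak past the start site, and AKR1C3 at 5.1 and 5.19 (52.0 and 70.8). AKR1C3 in those labelled PC9 was at 3.14 and 3.24 (18.4 and 23.2). The NQO1 peak, which holds the printed core, was strong in every library, with 10.2, 8.95, 9.3 and 8.68 in the Mock libraries labelled A549, PC9, CL1-5 and H1299 and 9.23, 8.27, 7.01 and 7.45 after DAC. Its percentile stayed between 84.1 and 96.6. GCLM stayed between 75.3 and 87.3. The TXNRD1 peak over the start site used here was at 43.8 in A549, 43.6 and 58.4 in the libraries labelled PC9 and CL1-5, and 80.0 in H1299 in Mock. The rank at this start site did not follow the mRNA of the gene, which has 19 annotated transcript starts. Over the gene and 10000 bases on each side, the Mock lists held 21 peaks in A549 and 12 in H1299. Those labelled PC9 and CL1-5 held 19 and 16, and the lists differ in length. SRXN1 lay between 52.9 and 75.9, although its mRNA was close to 0 in the table.

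**Figure D4:**
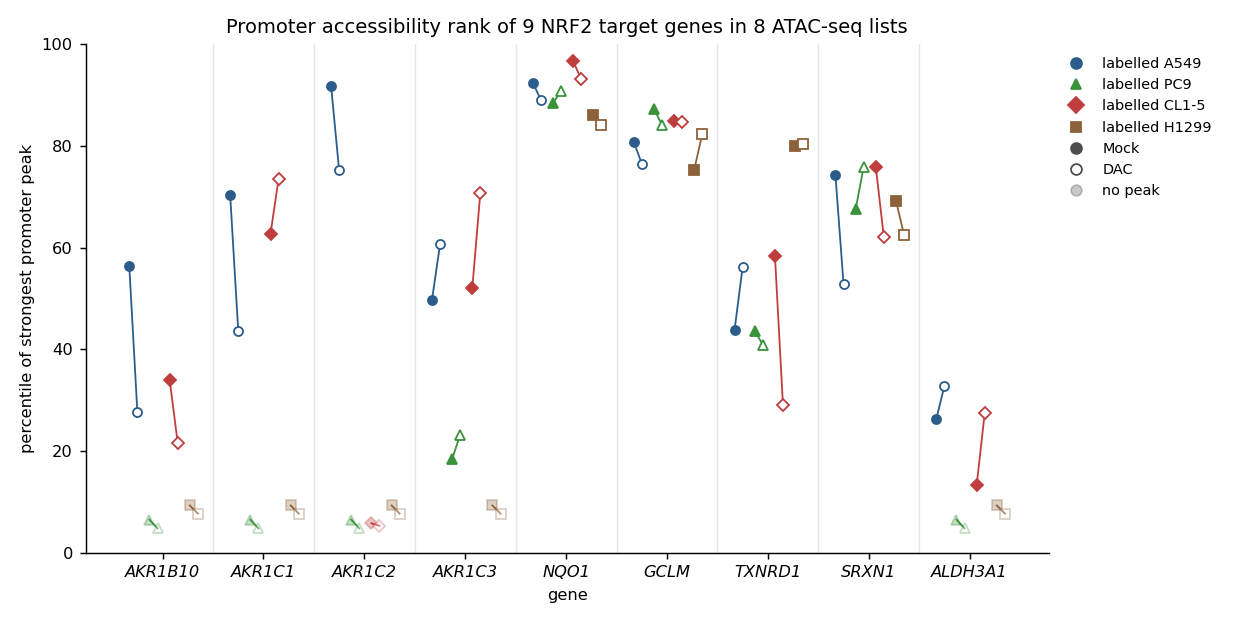
Percentile of the strongest peak within 3000 bases of the start site among 16623 ranked genes, for each member in the 8 ATAC-seq lists, named by their labels. Filled symbols are Mock, open symbols DAC, and pale symbols stand for genes with no peak, which share the lowest rank. NQO1 and GCLM lie above 75 in all lists, and AKR1C2 has a peak within this window in A549 alone.

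The median over the 9 members of the percentile in DAC less that in Mock was -4.3 in A549, -1.7 in the library labelled PC9, -0.5 in that labelled CL1-5 and -1.6 in H1299, beside -1.1, -0.9, -0.5 and -1.0 over all ranked genes. The mean over the 4 lines was -2.02 ± 1.59 (SD, n = 4), and -0.23 with the same number of peaks kept in every list. Where a member had no peak in either list, this difference only reflects how many genes had none, and it was between -1.7 and -0.5. The medians of the libraries labelled PC9 and CL1-5 and of H1299 were those of members without a peak, so the sign over the 4 lines carries no test. Set against the mean of the other libraries, the members' median percentile in A549 was higher by 41.56 in Mock (SD of the others 26.12, n = 3) and by 25.28 after DAC (SD 27.95, n = 3). A549 was above all 3 others in Mock, with a median of 70.3 against 58.4, 18.4 and 9.3, and below that labelled CL1-5 after DAC (56.2 against 62.0). With 1 library against 3 this was not tested, and by the summed width of the peaks the difference was 10.95 in Mock and 16.39 after DAC. Without H1299 the difference after DAC was 13.65, and without CL1-5 it was 40.78.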

How the data were processed

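mRNA-seq of 12 libraries and Omni-ATAC-seq of 8 libraries were analysed, 1 library per line and treatment. Per the paper's methods, the authors trimmed reads, ran RSEM with bowtie2 against hg19, counted reads per gene on GENCODE release 25 lifted to GRCh37, and deposited FPKM values made with DESeq2 1.24.0. The submitters' processing notes also name TopHat2 2.1.1. The deposited table also holds the mean normalized signal of each gene and the authors' own comparison of DAC with Mock (a log2 fold change, its error, a test score, and p-values and adjusted p-values), which was not used. For ATAC-seq, the authors aligned reads with BWA 0.7.17-r1188, marked duplicates with Picard 2.21.4, filtered with SAMtools 1.9, called broad peaks for each library with MACS2 2.2.5 and annotated them with ChIPseeker 1.20.0. The deposited peak lists give a score, the fold enrichment over local background as a ratio, and −log10 p and q values, each within its own library.

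Groups came from the labels, and 0 columns had no sample. Whole reads were recovered from the FPKM and the mean normalized signal (100% whole within 0.01, checked under 50 reads). These gave the depth of each library, and intervals and floors cover counting error only. The tests used limma 3.58.1 in R 4.3.3 on log2(FPKM + 0.1) with a mean-variance trend, for genes with a mean of at least 0.1 FPKM in the libraries of a fit, with Benjamini-Hochberg adjustment over all of them. A fold change on this scale understates that of low genes. The fits were DAC against Mock over 5 lines with the line as a block, A549 against the other 5 lines in Mock and after DAC, and the difference of the DAC response between A549 and the others, with the line as a block. Pairing by line comes from the labels. Deviations of Mock and DAC libraries correlated at 0.7 to 0.903 within a line and at most 0.164 between lines. The labels name no separate cultures, so p-values measure the spread between lines. The fits were tested on simulated data. Peaks within 3000 bases of the canonical start site were ranked by fold enrichment among 16623 genes. Start sites came from GENCODE release 44 on GRCh37, and sequences from the GRCh37 genome. No peak lay past the length of its chromosome in that build. Python 3.11.15, SciPy 1.17.1, pysam 0.24.0 and Biopython 1.88 were used.

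All 9 members, 9 regulators of the pathway and 3 relatives are named. Of 30 further targets, those with the 3 largest and 3 smallest Mock differences and the extreme DAC differences are named, with genes from the 10 most correlated with the members. Some items are not reported here. RBX1 at an unadjusted p was named after its values were seen. The members and lists were chosen with earlier results of these data known. Alternatives were other pseudocounts, filters and scalings, voom on recovered reads, other line sets, leaving out each line, and other peak measures. Taking peaks by the gene assigned in the lists was chosen after seeing the data.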

Additional observations from a re-analysis of the deposited data

Results flagged for a closer look

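Of 56 groups tested for a sample far from the others, 5 had one, where chance gives about 5% of groups. The reads on genes stood apart in H1299, at 59735913 in Mock and 52634234 after DAC, against 22234485 to 25303899 in the other lines. The promoter percentile of AKR1C2 stood apart in A549, at 91.8 in Mock and 75.2 after DAC, where the other 3 lines had no promoter peak for this gene, and so did its difference, DAC minus Mock, at -16.6. Lines without a peak lay close together at the lowest rank of their list, 5.8 to 9.3 in Mock. A strong peak in a single line is therefore flagged readily, and the 5% is no guide there.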

How the results depend on the processing

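Of 780 values recomputed under alternatives, 712 kept their direction and side of the threshold or moved by less than the spread, 49 moved and 19 reversed; the cause was not tested. Members missed the adjusted threshold of 0.05 in every one of them, which in so small a design says nothing about stability. Some of the values that stayed the same could not have moved. Exchanging the libraries labelled CL1-5 and PC9 leaves the promoter values at -2.02 over the lines, and at 41.56 and 25.28 for A549. Leaving out the trend or the filter leaves the estimated difference of each gene as it was. For DAC against Mock, 27 genes were higher and 0 lower. The count higher was 0 with a pseudocount of 1, 2 with no filter, 41 on the TPM scale, 17 after quantile normalization, 6 with no trend, 178 with voom (with 1 lower), 53 with 6 lines and 10 with no replicate block. Leaving out a line gave 0 (A549 or CL1-5) to 22 (H1299) higher and 0 to 1 lower. For A549 in Mock, 0 genes became 190 higher with a pseudocount of 1, 688 (9 lower) with no filter, 32 (1 lower) with no trend and 52 with voom. After DAC, 0 became 264 (1 lower), 748 (7 lower), 15 and 40 in the same order. For the DAC response of A549, 27 higher and 2 lower became 99 and 27 with a pseudocount of 1, 13 higher with a pseudocount of 0.01, 254 and 53 with no filter, 6 and 0 with a mean FPKM of at least 1, 15 and 0 on the TPM scale, 13 and 0 with voom, and 6 lower with no trend. Leaving out a line gave 5 (CL1-0 or CL1-5) to 10 (H1792) higher and 0 lower. The promoter difference of A549 in Mock was 10.95 by summed width.

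Reversals concerned small differences. For DAC against Mock, ALDH3A1 was at 0.71 with a pseudocount of 0.01, 0.39 on the TPM scale, 0.16 after quantile normalization and 0.01 with 6 lines, and SRXN1 at 0.04 on the TPM scale. Leaving out a line gave -0.74 to 0.16 for AKR1C3, -0.05 to 0.27 for GCLM, -0.19 to 0.11 for SRXN1 and -0.29 to 0.28 for ALDH3A1. For the DAC response of A549, the TPM scale and quantile normalization gave 0.30 and 0.26 for GCLM and 0.26 and 0.54 for TXNRD1, and quantile normalization gave 0.36 for NQO1. Leaving out a line gave -0.20 to 0.19 for GCLM and -0.17 to 0.05 for TXNRD1. The TPM scale moved the median of all genes to 0.19 for DAC against Mock, -0.30 for A549 in Mock and 0.32 for the DAC response of A549. Leaving out the line block changed no call for a member.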
